A study of Mus musculus with 10 samples.

Results

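The genes of the mitochondrial respiratory chain and of ATP synthase, encoded in the nucleus or in mitochondrial DNA, were followed in RNA from 10 mouse bladder tumors. Members were taken by name: symbols beginning with Nduf, Uqcr, Cox4, Cox5, Cox6, Cox7, Cox8 or Atp5, the genes Sdha, Sdhb, Sdhc and Sdhd, and the protein genes of mitochondrial DNA. Their mean over the 10 tumors had to reach 10 normalized counts (reads per gene, scaled by the authors for the size of each library). Of 112 symbols with such names 107 reached it, among 24202 symbols in the table, of which 16767 passed the same minimum and were tested. Nuclear genes made up 94 of the members and mitochondrial genes 13. The other 5 matches, Atp5l2-ps, Cox7b2, Cox6c2, Cox8b and Atp5l-ps1, had means of 7.92, 4.43, 3.52, 1.96 and 0.925 and were not tested.

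The tumors came from MB-49, a mouse bladder cancer cell line, of which 100000 cells were injected beneath the skin of 1 flank, the right. All hosts, treated or not, were hLrrc32 knock-in mice; LRRC32 encodes GARP, a surface protein that holds latent TGF-beta. The 5 PIIO-1 tumors came from mice given PIIO-1, an antibody to GARP, by intraperitoneal injection of 200 ug each on days 6 and 9, and the 5 PBS tumors from mice whose treatment label is PBS. All were collected on day 10, and no source used here gives the age or sex of the mice. RNA was taken from single-cell suspensions of whole tumors, so it mixes 1 cancer cell line with the host cells of the tumor. Summed epithelial markers (12 keratin, cadherin, Epcam and uroplakin genes, of which Upk2 and Upk3a were below the minimum) lay between 82081 and 103220.0 normalized counts in all tumors, and the leukocyte gene Ptprc between 7928 and 17429.7.

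The respiratory chain moves electrons from NADH and succinate to oxygen through complexes I to IV of the inner mitochondrial membrane, and complex V, the ATP synthase, uses the proton gradient this builds. Most subunits are encoded in the nucleus and imported, but a core set in complexes I, III, IV and V is made inside the mitochondrion from mitochondrial DNA. That DNA is transcribed from both strands into long precursors, which are then cut into single RNAs, whereas each nuclear gene has a promoter of its own. Complex II is wholly nuclear in origin.

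Depth ran from 18843192 reads in genes (PBS tumor 4) to 37581521 (PBS tumor 3). The comparison of PIIO-1 with PBS tumors was made by limma on log2(normalized count + 1), a scale on which differences of low genes come out too small, with Benjamini-Hochberg adjustment over all 16767 genes. It called 0 genes at an adjusted p under 0.05 (0%), edgeR called 0 and DESeq2 called 3 (0.0179%). Of the 107 members each of these tools called 0. The labels do not say that tumors came from separate animals, so a p here measures only the spread among these samples. Before adjustment, 944 genes (5.63%) had a limma p below 0.05, of which 480 were higher (2.86%) and 464 lower (2.77%) with PIIO-1, and among the members 3 of 107: Atp5k and Ndufa4 higher and Ndufa11 lower. At that level edgeR counted 975 genes and DESeq2 1012, each with 3 of the members. The PIIO-1 and PBS values did not overlap for 143 genes (0.853%; 66 higher, 0.394%, and 77 lower, 0.459%) and for 0 of the 107 members. No member is therefore described below as having risen or fallen with treatment.

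The most visible feature of the members was how differently the nuclear and the mitochondrial genes varied from tumor to tumor. The mean log2 level of the 94 nuclear members was 10.48, 10.37, 10.40, 10.27 and 10.31 in PBS tumors 1 to 5 and 10.34, 10.43, 10.41, 10.40 and 10.37 in PIIO-1 tumors 1 to 5. The mean of the 13 mitochondrial members was 11.94, 11.34, 11.51, 10.89 and 10.82 in the PBS and 11.19, 11.30, 11.24, 11.56 and 12.59 in the PIIO-1 tumors. The nuclear mean thus spanned 0.22 and the mitochondrial mean 1.78 log2 units over the same 10 libraries. In bulk RNA, fewer cells of a type and less RNA per cell cannot be told apart. PIIO-1 tumor 5 was highest and PBS tumors 4 and 5 were lowest for the mitochondrial genes, and the groups overlapped in both measures.

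**Figure D1:**
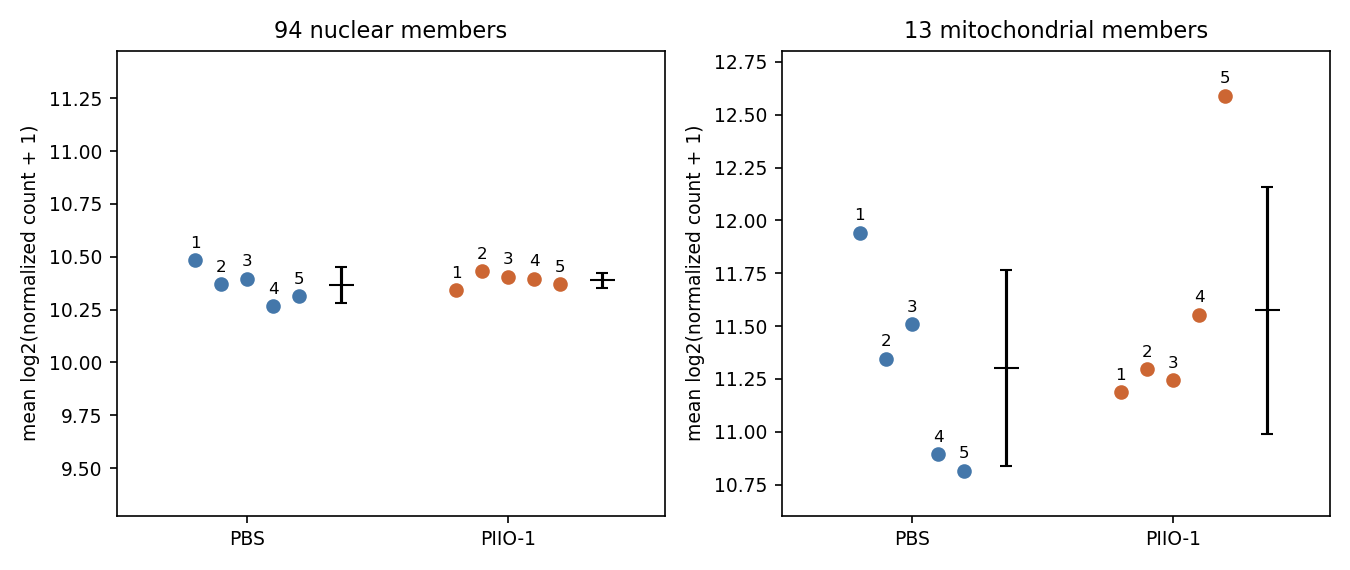
Mean log2(normalized count + 1) in each tumor (points, numbered by tumor) over the 94 nuclear members (left) and the 13 mitochondrial members (right), with the group mean and SD of 5 tumors (bars). The axes of the panels cover the same span, and the nuclear means lie within 0.22 of each other where the mitochondrial means range over 1.78.

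Subtracting the nuclear from the mitochondrial mean within each tumor gave 1.46, 0.97, 1.11, 0.63 and 0.50 in the PBS group and 0.85, 0.87, 0.84, 1.16 and 2.22 in PIIO-1 tumors. The group means were 0.94 ± 0.38 in the PBS group and 1.19 ± 0.59 in PIIO-1 tumors (SD, n = 5), a difference of 0.25 that is smaller than either SD. Without PIIO-1 tumor 5 that difference was -0.0082, so 1 library decides its size and sign. Counted as reads, the mitochondrial members took 2.14, 1.26, 1.65, 1.07 and 0.943 percent of all reads in the PBS group and 1.25, 1.28, 1.37, 1.65 and 3.01 percent in PIIO-1 tumors. The nuclear members took 0.916, 0.878, 0.877, 0.853 and 0.831 percent and 0.867, 0.894, 0.853, 0.825 and 0.809 percent. Reads of 13 mitochondrial genes thus exceeded those of 94 nuclear genes in every tumor, from 1.14 mitochondrial reads per nuclear read in PBS tumor 5 to 3.72 in PIIO-1 tumor 5, the library with the smallest nuclear share.

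The contrast held gene by gene. The SD of a member's log2 level over the 10 tumors had a median of 0.53 among the 13 mitochondrial and 0.099 among the 94 nuclear members, against 0.17 over all genes tested. Since low counts vary more, the nuclear members with a mean of at least 500 were also set beside all genes with that mean: the medians were 0.094 over 78 members and 0.105 over 8909 genes. Nuclear members therefore varied about as much as other abundant genes, and mitochondrial members several times more; no test was made of this. PIIO-1 tumor 5 held the highest value of 13 of 13 mitochondrial members, and PBS tumor 5 the lowest value of 9, PBS tumor 4 of 3 and PBS tumor 3 of 1. Among the nuclear members, PBS tumor 1 was highest for 36 of 94, while PBS tumors 4 and 5 were lowest for 30 and 29.

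**Figure D2:**
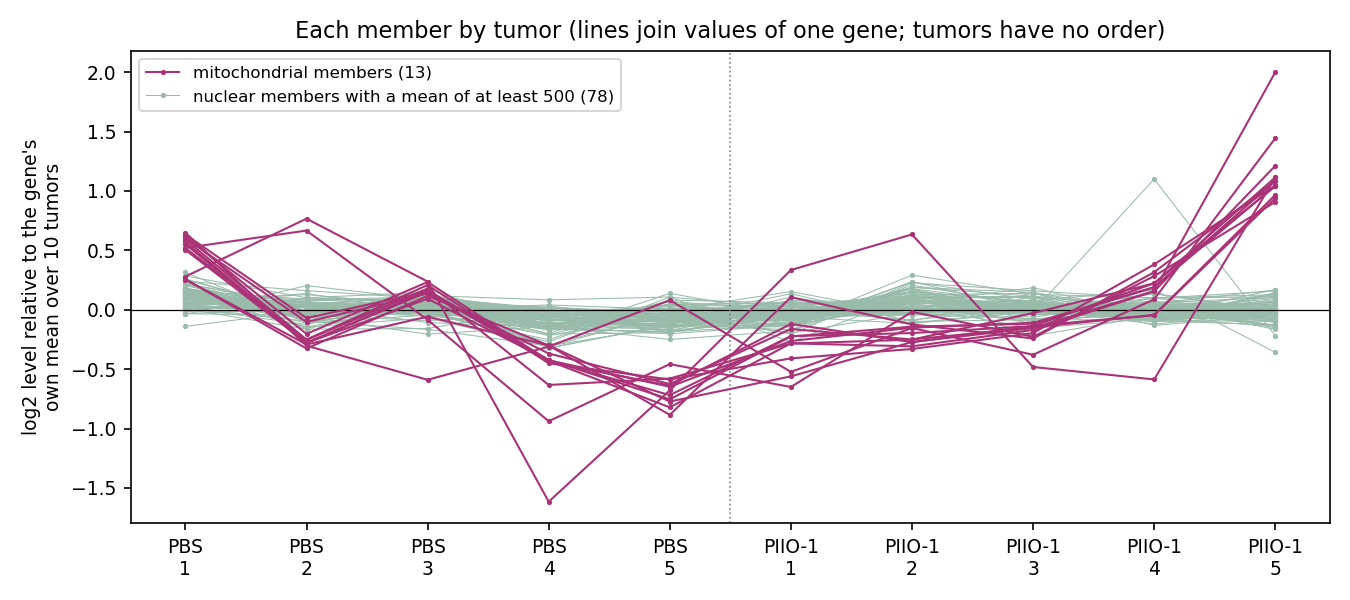
Each member's log2 level relative to its own mean over the 10 tumors, for the 13 mitochondrial members (dark lines) and the 78 nuclear members whose mean reached 500 normalized counts (pale lines); lines join the values of 1 gene and tumors have no order. All 13 mitochondrial genes peak in PIIO-1 tumor 5, and the single nuclear line far from 0 is Ndufa12 in PIIO-1 tumor 4.

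The split ran through each complex that has subunits of both origins. For complex I the mean of the mitochondrial ND subunits ranged over 1.71 log2 units across tumors and that of the 42 nuclear members with structural names over 0.20. Of those 42, Ndufs6b, Ndufb4c and Ndufab1-ps are annotated as processed pseudogenes, and Ndufa4 and its paralog Ndufa4l2 are named for complex I but tied to complex IV; without these 5 genes the range was 0.21. For complex III the ranges were 1.84 for cytochrome b and 0.22 for 8 nuclear subunits. For complex IV they were 1.70 and 0.42, and for complex V 2.51 and 0.16. Complex II, with nuclear genes alone, ranged over 0.098. In all 4 mixed complexes the mitochondrial subunits spread more widely between tumors than their nuclear partners. In each, the mitochondrial mean covers fewer genes than the nuclear mean, and a mean over more genes tends to range less. The mitochondrial mean of complex V rests on mt-Atp6 and on mt-Atp8, which had only 3.12 to 26.3 normalized counts.

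Of the mitochondrial genes, mt-Co1 (chrM:5328-6872, plus strand, GRCm38), the catalytic subunit of complex IV, was the most abundant. It stood at 336878, 197194, 266155, 151643 and 157406 normalized counts in PBS tumors and at 193156, 197516, 230727, 274318 and 508767 in PIIO-1 tumors. PIIO-1 tumor 5 lay above all others and PBS tumor 1 came next, while the other 4 PIIO-1 tumors fell inside the PBS range. The difference on the log2 scale, PIIO-1 minus PBS, was 0.31 (SE 0.29), with an adjusted p of 0.883 by limma. The gene took between 48.3% and 54.2% of the reads of the mitochondrial members, while the share of all reads that these members took differed by 3.19 times between the lowest and the highest tumor.

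The other abundant mitochondrial genes had the same order of tumors at the top. mt-Cytb (chrM:14145-15288, plus strand), cytochrome b of complex III, stood at 111083, 64554, 87655, 58480.3 and 46436 in the PBS group and 66982, 70967, 72214, 89140.2 and 166443 in PIIO-1 tumors. mt-Nd1 (chrM:2751-3707, plus strand), a membrane subunit of complex I, stood at 79053, 44452, 57526, 40173 and 34422 and 44953, 48584, 49982, 61564 and 111303. In both genes PIIO-1 tumor 5 was highest, PBS tumor 1 second and PBS tumor 5 lowest. mt-Cytb differed by 0.32 (SE 0.28) and mt-Nd1 by 0.28 (SE 0.27), with adjusted p of 0.879 and 0.883. The complex I genes mt-Nd2, mt-Nd4 and mt-Nd5 ranged from 18182 to 61490.5, 12277 to 50246 and 15914 to 47959 over the 10 tumors and differed by 0.28 (SE 0.28), 0.24 (SE 0.32) and 0.14 (SE 0.26). mt-Nd6 (chrM:13552-14070), the only protein gene on the minus strand of mitochondrial DNA, stood at 10389, 6381, 7449.7, 4936 and 4303 in the PBS group and 6165, 5545, 6097, 6490.2 and 12849 in PIIO-1 tumors and differed by 0.15 (SE 0.26). It shares 14 bases with mt-Nd5. Since the strand setting of the counting is not given, reads over any part of mt-Nd6 may come from RNA of either strand. The counts given to mt-Nd6 peaked in the same tumor as those of the genes on the plus strand. Which strand these reads came from was not tested.

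Over the 13 mitochondrial members the differences were positive for 13 and ran from 0.12 (mt-Co2) to 0.47 (mt-Atp6), with a median of 0.28, against 8571 positive and 8196 negative and a median of 0.0027 over all genes tested. The members are read from the same libraries and do not count as 13 independent results. Leaving out PIIO-1 tumor 5 lowered the median to 0.027 and left 7 of the 13 positive; leaving out PIIO-1 tumor 5 and PBS tumor 4 together, chosen after the data were seen, gave -0.11. Each of the 13 differences was smaller than 2 of its standard errors, and the smallest adjusted p was 0.837.

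Other measures of PIIO-1 tumor 5 stood apart too. Summed red blood cell markers (6 of 6 tested) were 58768 normalized counts there and 5563 to 23905 in the other tumors. Neutrophil markers (7 of 7 tested) were 44771 there and 19299 to 33588 elsewhere, with PBS tumor 1 next. T cell markers (7 of 7 tested) were 4359 there, 4154 in PBS tumor 1 and 1565 to 3317 in the other 8. The leukocyte gene Ptprc was highest there by a small margin, 17430 against 17239 in PIIO-1 tumor 4. The mean of the mitochondrial members, the neutrophil sum and the T cell sum had the same order at the top: PIIO-1 tumor 5, PBS tumor 1, PIIO-1 tumor 4. This match was picked out once the values were known, and none of the other marker lists had that order. Red blood cell markers and Ptprc had PIIO-1 tumor 4 second, with PBS tumor 1 at 7436 for the red blood cell markers. Macrophage markers were highest in PBS tumor 5 (61038), where the mitochondrial mean was lowest. Pericyte markers (8 of 9 tested) went both ways: Des, the muscle and pericyte filament gene desmin, stood at 901 there and 64.3 to 234 elsewhere, while 5 of the 8 tested genes were at their lowest of all tumors. The pericyte sum without Des, taken once the values were seen, was 252 there and 403 to 743 elsewhere. Skeletal muscle markers (5 of 14 tested, with Acta1, Ckm, Tnnt3, Tnnc2 and Actn3 not analysed here) were 1539 there and 875 to 1117 elsewhere. Adipocyte markers (1 of 7 tested) were 252 there and 57.3 to 188 elsewhere. Macrophage markers (43449) and epithelial markers (103220) were inside or just above the range of the others, 30020.0 to 61038 and 82081 to 99132. No marker of these lists that was in the table was at 0 in every tumor. The 12S and 16S ribosomal RNAs of the mitochondrion, mt-Rnr1 and mt-Rnr2, were 20861 and 14546 there, against 4674 to 11213 and 5824 to 11296 elsewhere. What part these had in the mitochondrial levels was not tested. The library was not short of reads, with 35299028 in genes.

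Levels of the mitochondrial genes split in a second way, by their place on mitochondrial DNA. Per kilobase of exon, the 6 neighbours from mt-Co2 to mt-Nd4l lay between 65.7 (mt-Atp8) and 1808 (mt-Co2) normalized counts, and the 7 genes on either side between 13604 (mt-Nd6) and 162703 (mt-Co1). The lowest of the 7 was 7.52 times the highest of the 6. Complex IV shows it within a single enzyme, since mt-Co1 per kilobase was 266 times mt-Co3, a partner subunit. This grouping was made after the levels were seen, and is a description.

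**Figure D3:**
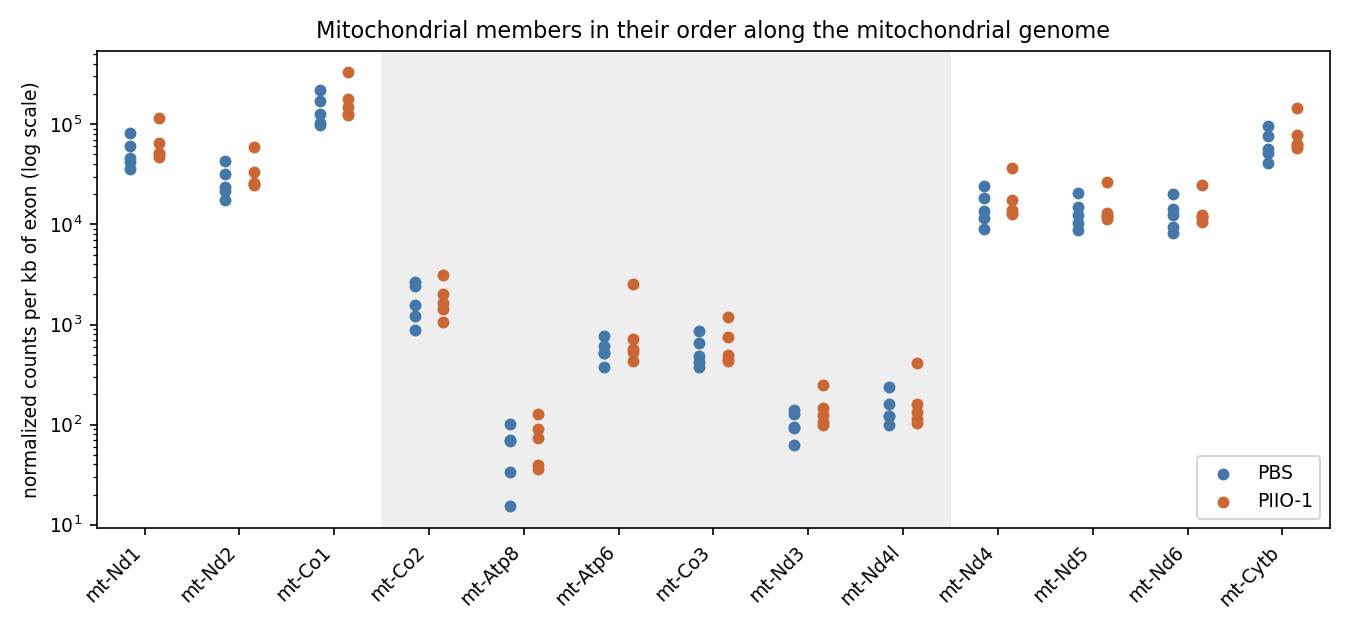
Normalized counts per kilobase of exon (log axis) of the 13 mitochondrial members in each PBS and PIIO-1 tumor (points), ordered along mitochondrial DNA. The shaded genes, mt-Co2 to mt-Nd4l, lie between 65.7 and 1808 on average and the others between 13604 and 162703, and PIIO-1 tumor 5 is the top point for each gene.

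The 6 low genes lie where chromosome 1 carries a copy of mitochondrial DNA. On the minus strand between chr1:24611535 and 24616197 (GRCm38, GENCODE M21) stand 7 unprocessed pseudogenes, in mitochondrial order: Gm29216, Gm28661, Gm10925, Gm28437, Gm28438, Gm10222 and Gm28439. Gm28661 (chr1:24614885-24615565) was identical to mt-Co2 over 681 of 681 bases, Gm10925 to mt-Atp6 over 678 and Gm28437 to mt-Co3 over 783. Gm28438 matched mt-Nd3 at 99.7% of 345 bases and Gm10222 matched mt-Nd4l at 100% of 294. At the edges, Gm29216 covered the last 483 bases of mt-Co1 and Gm28439 the first 876 of the 1378 of mt-Nd4. Most of mt-Atp8 falls between the pairs of mt-Co2 and mt-Atp6, in a stretch with no annotated copy. Its last 43 bases are shared with mt-Atp6 and lie in the stretch that Gm10925 matches. Both of these pairs line up with chromosome 1 at the same offset, so the copied DNA may run on across mt-Atp8. Windows were sought in annotated genes only, and 43 bases cannot hold a window of 100. A share of 0% for mt-Atp8 therefore does not settle this. Counted in windows of 100 bases, the share of a gene also present in another annotated gene was 99.9% for mt-Co3, 99.5% for mt-Co2 and mt-Atp6, 98.5% for mt-Nd4l, 97.6% for mt-Nd3, 60.8% for mt-Nd4, 30.8% for mt-Co1, 3.2% for mt-Nd2 and 0% for the other 5.

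The identity is shown by matched stretches of 120 bases, for a gene in the copy with no difference, a gene in the copy with 1 difference, and mt-Cytb, which is outside it and whose nearest annotated copy is the processed pseudogene Gm11410 on chromosome 4. They are bases 282 to 401 of mt-Co2 (chrM:7294-7413), bases 1 to 120 of mt-Nd3 (chrM:9459-9578) and bases 513 to 632 of mt-Cytb (chrM:14657-14776), all on the plus strand of GRCm38, from GENCODE M21 transcripts. Capitals mark the bases at which gene and copy differ.
mt-Co2: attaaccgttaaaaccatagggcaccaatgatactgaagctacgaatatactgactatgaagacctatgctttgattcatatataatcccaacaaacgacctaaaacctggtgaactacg
Gm28661: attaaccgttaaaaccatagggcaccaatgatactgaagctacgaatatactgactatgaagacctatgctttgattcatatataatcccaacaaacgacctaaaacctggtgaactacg
mt-Nd3: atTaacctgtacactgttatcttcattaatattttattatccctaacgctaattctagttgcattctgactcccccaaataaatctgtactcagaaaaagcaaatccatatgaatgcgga
Gm28438: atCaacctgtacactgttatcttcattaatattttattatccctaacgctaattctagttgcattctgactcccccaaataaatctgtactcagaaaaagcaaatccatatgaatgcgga
mt-Cytb: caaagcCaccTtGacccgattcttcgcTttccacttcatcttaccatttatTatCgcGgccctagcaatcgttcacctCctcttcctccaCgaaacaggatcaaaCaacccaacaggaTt
Gm11410: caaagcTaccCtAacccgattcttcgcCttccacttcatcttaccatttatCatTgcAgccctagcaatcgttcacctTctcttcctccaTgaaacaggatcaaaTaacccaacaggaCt
In the mt-Co2 stretch gene and copy had no differing base. The mt-Nd3 pair differed by T3C alone, with positions counted from 1 at the 5′ end of the mitochondrial gene, and by nothing else in 345 bases. The mt-Cytb pair differed at 11 positions of the stretch, C519T, T523C, G525A, T540C, T564C, C567T, G570A, C591T, C603T, C618T and T631C, and at 82 of 1143 bases in all. A run of 100 bases inside this mt-Co2 stretch is therefore found in both places of the annotation, and no such run of mt-Cytb is found in another annotated gene.

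The pseudogenes carried counts of the same order as the 6 genes. mt-Co2 stood at 1645, 1819.9, 1081, 598 and 835 in the PBS group and 730.1, 1132, 979, 1395 and 2152 in PIIO-1 tumors. Its copy Gm28661 stood at 1384, 564, 814, 398 and 525 and 629, 807, 782, 1016 and 1707. Both were highest in PIIO-1 tumor 5 and lowest in PBS tumor 4. mt-Atp6, a proton-channel subunit of ATP synthase, stood at 521, 356, 419, 354 and 255 and 295, 361, 392, 487 and 1747, and Gm10925 at 838, 550.1, 741, 457 and 417 and 524, 481, 587, 684 and 1384. Over the 10 tumors Gm10925 averaged 666 and mt-Atp6 519, so here the pseudogene was listed above the gene, as was Gm28438 (92.2) above mt-Nd3 (43.2). The 7 pseudogenes together held between 0.00442 and 0.0145 percent of reads, with the lowest share in PBS tumor 5 and the highest in PIIO-1 tumor 5, as for the mitochondrial genes.

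No source used here says how reads that match several places were counted, and its part in these levels was not tested. The values of mt-Co2, mt-Atp6, mt-Co3, mt-Nd3 and mt-Nd4l, and in part of mt-Nd4 and mt-Co1, are uncertain for that reason. Those of mt-Atp8 may be uncertain too, as its last 43 bases are matched by Gm10925 and copies outside annotated genes were not sought. mt-Co3, mt-Nd3, mt-Nd4l and mt-Atp8 ranged from 298 to 927, 21.5 to 87.1, 29.4 to 123 and 3.12 to 26.3 normalized counts. They differed by 0.20 (SE 0.30), 0.46 (SE 0.29), 0.19 (SE 0.36) and 0.40 (SE 0.48). Across tumors, the mean log2 level of the 7 genes outside the run of low genes ranged over 1.74 and that of the 6 inside over 1.92. The genes were also divided by the share of their windows found in another annotated gene. The 6 with under 5% (mt-Nd1, mt-Nd2, mt-Nd5, mt-Nd6, mt-Cytb and mt-Atp8) ranged over 1.71 and the other 7 over 1.83. mt-Atp8 is among these 6 although its neighbours on both sides have copies and its last 43 bases are matched by one of them. The 7 genes outside the run differed between groups by a median of 0.28, and so did the 6 with under 5%.

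Among the 94 nuclear members 48 differences were positive and 46 negative, with a median of 0.00037 and a mean of 0.023. Per kilobase the median level was 867 normalized counts for complex I structural members, 1552 for complex II, 2010.0 for complex III, 2353 for complex IV and 1523 for complex V (16 of 17 genes, as Atp5o had no match in the annotation), and 181 for the complex I assembly factors. The assembly factors, which build the complex but do not stay in it, thus had a lower median than every set of subunits. Levels per kilobase divide by the annotated exon bases of a gene, such as 5628 for Ndufb2 and 419 for Ndufa1. Rankings by them, here and below, therefore depend on the annotation too. The median difference was -0.0013 for complex I structural members, -0.017 for its assembly factors, -0.020 for complex II, -0.0086 for complex III, 0.043 for complex IV and -0.0072 for complex V.

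**Figure D4:**
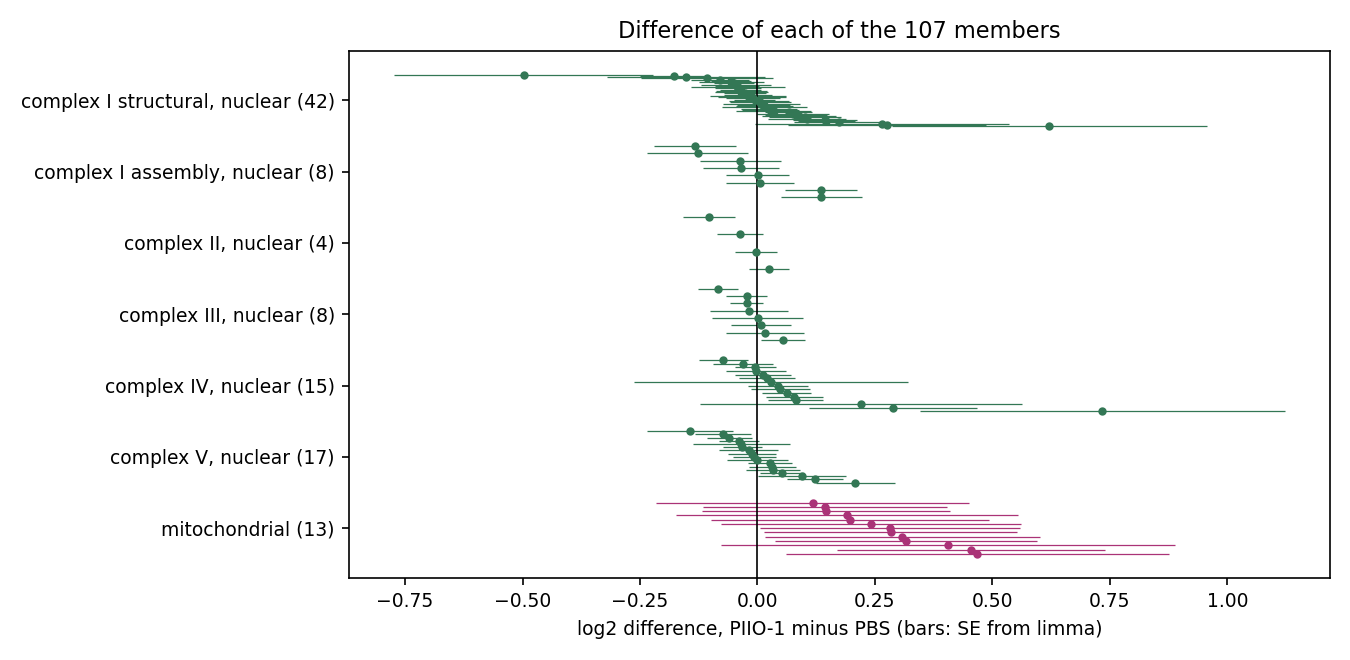
Difference of each of the 107 members on the log2 scale, PIIO-1 minus PBS (points), with its standard error from limma (bars), grouped by complex and by genome of origin. The 94 nuclear members lie on both sides of 0 and the 13 mitochondrial members all lie above it with wide bars; 0 of the 107 passed the test over all genes.

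In complex I, which takes electrons from NADH, 21 of 42 structural members were positive and 21 negative. Ndufa4 (chr6:11900292-11907497, minus strand), named for complex I but found as a subunit of complex IV, stood at 1451, 1288, 1293, 1462 and 1375 in the PBS group and 1422, 1573, 1588, 1399 and 1623 in PIIO-1 tumors. PIIO-1 tumors 2, 3 and 5 lay above every PBS tumor, and tumors 1 and 4 inside the PBS range. The difference was 0.15 (SE 0.060), with an unadjusted p of 0.0328 and an adjusted p of 0.837 by limma. Ndufa11 (chr17:56717767-56722141, plus strand), a membrane-arm subunit, stood at 864, 831, 878, 857 and 871 and 669, 879.8, 694, 782 and 793. Its PBS values were close together and PIIO-1 tumors 1, 3, 4 and 5 lay below them, while tumor 2 was the highest of all 10. Ndufa11 differed by -0.18 (SE 0.073), with an unadjusted p of 0.0313 and the same adjusted p. Ndufa11 shares 70 exon bases with Vmac (mean 217) on the other strand.

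Ndufv3 (chr17:31520115-31531331, plus strand), a small subunit of the NADH-binding module, stood at 1361 ± 119 in the PBS group and 1500.2 ± 92.8 in PIIO-1 tumors (SD, n = 5) and differed by 0.14 (SE 0.068). Ndufa2, an accessory subunit with the highest level per kilobase of the complex I members (2857), differed by 0.10 (SE 0.076). Low members had the widest spread. Ndufb4c, a copy of the subunit gene Ndufb4, had the most negative difference (-0.50 (SE 0.28)) and ranged from 17.1 to 50.7, and 100% of its windows of 100 bases also occur in Ndufb4, so its reads are uncertain. Ndufs6b ranged from 6.24 to 24.3 and differed by 0.62 (SE 0.34). The lowest level per kilobase, 20.3, belonged to Ndufb2, which shares 146 exon bases with Braf on the other strand and 145 with the overlapping model Gm42420 on its own. These 3 genes were singled out after their values were seen.

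Of the 8 assembly factors 4 were positive and 4 negative. Ndufaf2 and Ndufaf3 differed by 0.14 (SE 0.076) and 0.14 (SE 0.086), and Ndufaf1, a chaperone of the membrane arm, by -0.13 (SE 0.087). Ndufaf8, the factor with the highest level per kilobase (569), differed by -0.035 (SE 0.082). In Ndufaf2 62.4% of windows also occur in another gene. All 4 had values in both groups that overlapped.

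Complex II oxidizes succinate and is shared with the tricarboxylic acid cycle. Sdhb, its iron-sulfur subunit (chr4:140961203-140979193, plus strand), stood at 3532, 3361, 3224, 3122 and 3151 in the PBS group and 2962, 3345, 2909, 3190.0 and 2870.5 in PIIO-1 tumors. PIIO-1 tumors 1, 3 and 5 lay below all PBS tumors, and the difference was -0.10 (SE 0.055) with an adjusted p of 0.837. Sdha, the flavoprotein with the succinate site, ranged from 6529 to 7364 and differed by 0.025 (SE 0.042). The membrane anchor Sdhd, the highest of the set per kilobase (3214), differed by -0.037 (SE 0.048), and the other anchor Sdhc by -0.0025 (SE 0.045).

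Complex III passes electrons from ubiquinol to cytochrome c. Its core subunit Uqcrc1 (chr9:108936633-108949623, plus strand) was the steadiest of all members, with an SD of 0.028 log2 units over 10 tumors; it stood at 6138, 5883, 6203, 5903 and 6115 in the PBS group and 5925, 5982, 5869, 5959.9 and 6030.4 in PIIO-1 tumors. Its partner Uqcrc2 stood at 3832, 3856, 3918, 3695 and 3552 and 3639.7, 3453, 3676, 3423 and 3592. In Uqcrc2 PIIO-1 tumors 2 and 4 lay below every PBS tumor and the difference was -0.084 (SE 0.042); Uqcrc1 differed by -0.023 (SE 0.035). Uqcrc2 shares 504 exon bases with Pdzd9 (mean 8.45) on the other strand. The hinge subunit Uqcrh differed by 0.055 (SE 0.046), and Uqcr10, the highest per kilobase (3372), by 0.0076 (SE 0.065). mt-Cytb, the mitochondrial subunit of the same complex, had an SD of 0.52 over the 10 tumors.

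Complex IV reduces oxygen, and several of its nuclear subunits exist as a widely expressed form and a form of muscle, lung, testis or low oxygen. In every such pair the widely expressed form was far higher per kilobase: Cox4i1 62.6 times Cox4i2, Cox6a1 152 times Cox6a2, Cox6b1 438 times Cox6b2, Cox7a2 25.5 times Cox7a1, and Ndufa4 29.3 times Ndufa4l2. Cox8a, the widely expressed form of subunit VIII, had the highest level per kilobase of all nuclear members (10180.0), against 162703 for mt-Co1. Cox7b2 and Cox8b were below the minimum. The tumors thus carried mainly the common forms, in both groups.

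Cox4i1 (chr8:120668222-120674207, plus strand) stood at 9381, 9244, 9195, 7882 and 8993 in the PBS group and 8239, 8766, 8664, 8465 and 8306 in PIIO-1 tumors. PBS tumor 4 was the lowest of all 10, and the other 4 PBS tumors lay above all 5 PIIO-1 tumors. The difference was -0.072 (SE 0.052) with an adjusted p of 0.861, and Cox4i1 shares 154 exon bases with Emc8 on the other strand. Cox4i2, the form of lung and low oxygen, stood at 80.2, 50.7, 94.7, 39 and 87 and 42.8, 105, 60.3, 85.7 and 62.6. It ranged widely in both groups, and its difference of 0.029 (SE 0.29) turned negative under several settings given in the closing section. Cox6a1, Cox6b1, Cox7a2, Cox7b and Cox7c differed by 0.011 (SE 0.060), 0.048 (SE 0.063), -0.032 (SE 0.064), 0.078 (SE 0.061) and 0.081 (SE 0.059). Cox8a differed by 0.043 (SE 0.064), and Cox7a2l, which joins complexes III and IV into supercomplexes, by -0.0041 (SE 0.044).

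Among the special forms, Cox6b2, the testis form, stood at 14.3, 7.8, 7.35, 9.36 and 4.31 in the PBS group and 5.97, 23.5, 20.1, 11.6 and 16.3 in PIIO-1 tumors. Its difference of 0.73 (SE 0.39) was the largest of all members, on counts so low that a few reads move it, and the adjusted p was 0.837. Summed testis markers (2 of 5 tested) lay between 46.8 and 79.6 in PBS and between 33.8 and 102 in PIIO-1 tumors. Cox7a1, the heart and muscle form, stood at 40.1, 44.9, 58.8, 51.5 and 37.9 and 44.8, 53.8, 72.4, 51.9 and 63.5 and differed by 0.29 (SE 0.18). Cox6a2, a form of the same tissues, stood at 62.1, 30.2, 28.6, 14 and 47.4 and 47.7, 30.3, 48.3, 30.7 and 37.2 and differed by 0.22 (SE 0.34). Neither was highest in PIIO-1 tumor 5, where the summed muscle markers were highest. Ndufa4l2, a paralog of Ndufa4 known from hypoxia and from pericytes, stood at 34.4, 23.4, 27.8, 54.6 and 37 and 68.6, 32.3, 39.2, 43.4 and 30.9 and differed by 0.27 (SE 0.27). Its 2 highest values were in PIIO-1 tumor 1 and PBS tumor 4. These tumors also held the highest pericyte sums without Des, 693 and 743, and the highest fibroblast sums, 9883 and 7114. The sum without Des was taken once the values were seen. Its next value, 585 in PIIO-1 tumor 2, went with 32.3 for Ndufa4l2. With Des, which the pericyte list holds, that sum was highest in PIIO-1 tumor 5 (1153), where Ndufa4l2 was at 30.9. The groups overlapped in all 5 forms, and the part of other cell types in them was not tested.

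Complex V makes ATP. Its catalytic beta subunit Atp5b (chr10:128083273-128090391, plus strand) had the highest level per kilobase of the set (8758) and stood at 38253, 38169.6, 37513, 36085 and 36232 in the PBS group and 38598, 36844, 38259.6, 35104 and 36031 in PIIO-1 tumors. It differed by -0.011 (SE 0.051). Atp5k, the small membrane subunit e (chr5:108433244-108434448, minus strand), stood at 701, 633, 572, 598 and 573 and 604, 807, 722, 707 and 719.7. PIIO-1 tumors 2, 3, 4 and 5 lay above every PBS tumor and tumor 1 inside the PBS range. The difference of 0.21 (SE 0.084) had the smallest unadjusted p of all members, 0.0301, and an adjusted p of 0.837 by limma. Atp5mpl, another small membrane subunit, stood at 1609, 1594, 1545, 1609 and 1536 and 1503, 1876, 1782, 1652 and 1802; PIIO-1 tumors 2 to 5 again lay above every PBS tumor and tumor 1 below all of them, and the difference was 0.12 (SE 0.060). Atp5s, known as coupling factor B, was low (156 to 199.9) and differed by -0.14 (SE 0.091). The 5 genes of the catalytic head, Atp5a1, Atp5b, Atp5c1, Atp5d and Atp5e, differed by -0.039, -0.011, -0.060, 0.033 and 0.095. Of the 17 members of complex V 7 were positive and 10 negative.

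In PIIO-1 tumor 4, Ndufa12 lay far from its level in the other tumors. The gene (chr10:94198720-94221443), an accessory subunit of complex I, stood at 649.6, 601, 572, 519.6 and 582 in the PBS group and 616, 592, 635, 1377 and 552 in PIIO-1 tumors. PIIO-1 tumor 4 lay far above the other 9 tumors, which held 520 to 650. Its processed pseudogene Gm15920 (chr5:130188395-130188796, plus strand) stood at 753, 723, 637, 529 and 499.5 and 656, 716, 623, 289 and 622, lowest in that same tumor. Of the windows of 100 bases of Ndufa12 11.4% also occur in Gm15920. Ndufa12 held 45.3% to 82.7% of the summed counts of the pair, and the sum was 1666 in PIIO-1 tumor 4 and 1049 to 1402 in the others. Nearby genes on chromosome 10 showed nothing of the kind in PIIO-1 tumor 4: Nr2c1 stood at 456 there, Fgd6 at 1594 and Tmcc3 at 2029, each inside the range of the other tumors. In that library the gene was thus at its highest, its pseudogene at its lowest and the sum of the pair at its highest. Whether reads moved between gene and pseudogene was not tested. Since reads of the shared windows can fall to either, the level of Ndufa12 is uncertain. Its difference was 0.28 (SE 0.21). Ndufa12 was picked out once its values were known, and the cause was not tested.

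**Figure D5:**
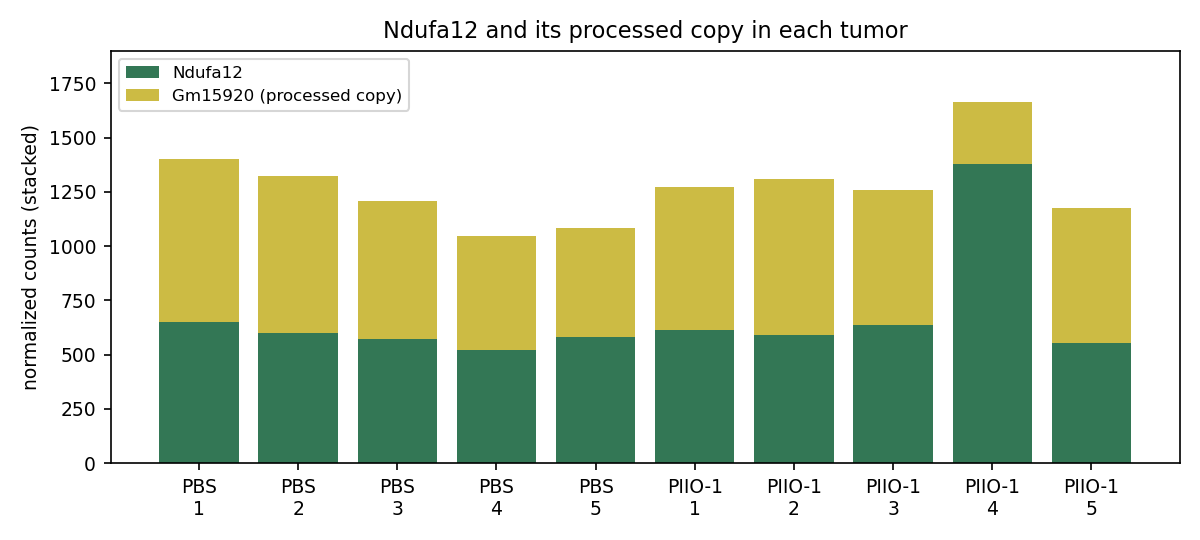
Normalized counts of Ndufa12 (lower part of each bar) and of its processed pseudogene Gm15920 (upper part) in each of the 10 tumors. In PIIO-1 tumor 4 Ndufa12 reaches 1377 and Gm15920 is at 289, where the other tumors hold 520 to 650 and 500 to 753.

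Genes that serve the chain without being members gave no call either. Of 36 tested genes for assembly of complexes, 13 were positive and 23 negative (median -0.024), with Foxred1 and Nubpl, both complex I assembly factors, at -0.15 (SE 0.059) and -0.18 (SE 0.081). Of 16 electron carrier and ATP synthase regulator genes 5 were positive and 11 negative (median -0.023). Pdss1 and Coq5, which act in ubiquinone synthesis, differed by -0.19 (SE 0.076) and -0.11 (SE 0.060). Of 26 genes for mitochondrial transcription, replication and RNA, 7 were positive and 19 negative (median -0.038), with the tRNA-processing nuclease Elac2 at -0.100 (SE 0.044) and Fastkd3, which acts on mitochondrial mRNAs, at -0.15 (SE 0.067). In PIIO-1 tumor 5, where all 13 mitochondrial members were highest, 4 of these 26 genes were highest and 3 lowest. The 4 were Polg (2864), Polg2 (383), Fastkd2 (584) and Mterf2 (142), named after their values were seen. Elac2 stood at 1416, 1337, 1391, 1411 and 1415 in the PBS group and 1339.9, 1368, 1292, 1248 and 1259 in PIIO-1 tumors.

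Of 12 nuclear regulators of respiratory genes 6 were positive and 6 negative (median -0.0019). Ppargc1a, the coactivator PGC-1 alpha, was low, at 35.3, 24.4, 21.2, 25 and 18.9 in the PBS group and 14.9, 22.5, 11.1, 16.9 and 19.1 in PIIO-1 tumors, and differed by -0.54 (SE 0.24); Yy1 differed by 0.081 (SE 0.039). Of 17 genes of the tricarboxylic acid cycle 3 were positive and 14 negative (median -0.025), with Idh3b, a subunit of isocitrate dehydrogenase, at -0.081 (SE 0.044). The 10 hypoxia targets that bear on mitochondria were all positive, with a median of 0.32, Vegfa at 0.54 (SE 0.17) and the glucose transporter gene Slc2a1 at 0.37 (SE 0.15). Each gene given from these lists with its difference had an adjusted p of 0.837 by limma. Fastkd2, named for its level in PIIO-1 tumor 5, had an adjusted p of 0.977 by limma. In no list did a gene pass over all genes, and every list had 0 genes whose groups did not overlap.

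Promoter letters, which the naming rule did not use, were counted for the nuclear members. RefSeq windows of 300 bases (250 before and 50 after a start site, GRCm38.p6) were found for 75 of the 94 nuclear members, in 80 windows. The letters GCGCATGCG, a core of the site of NRF1, a factor known for nuclear genes of the respiratory chain, stood on either strand in 12.5% of member windows, in 1.75% of 32851 windows in the table and in 3.15% of windows of tested genes. With 1 free base (GCGCANGCG, which includes the first motif) the shares were 28.8%, 6.25% and 11.6%. The YY1 letters AAGATGGC stood in 13.8%, 2.75% and 4.05%, and the ETS letters CCGGAAG in 22.5%, 8.86% and 16.0%. The SP1 letters GGGCGG stood in 43.8%, 35.7% and 58.2%, so member windows lay above the whole table and below tested genes. By gene, 10 of the 75 members held the first NRF1 motif, 11 the YY1 and 18 the ETS letters, and no enrichment test was made. A match is a string of letters and not a site shown to be bound.

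The 10 member windows with the first motif are printed as 30 bases each on the strand of the gene, to show where the letters stand and what flanks them; the capitals are the matching letters, alike because the windows were chosen for them. They came from 2 of 36 windows of complex I structural members, 2 of 7 of its assembly factors, 2 of 5 of complex III, 1 of 11 of complex IV, 3 of 18 of complex V and 0 of 3 of complex II.
Ndufa11 (chr17:56717692-56717721, plus strand): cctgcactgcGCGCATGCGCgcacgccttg
Ndufa8 (chr2:36049329-36049358, minus strand): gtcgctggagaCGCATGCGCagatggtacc
Ndufaf4 (chr4:24897960-24897989, plus strand): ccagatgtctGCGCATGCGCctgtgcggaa
Ndufaf5 (chr2:140170652-140170681, plus strand): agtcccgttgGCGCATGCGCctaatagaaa
Uqcr11 (chr10:80406808-80406837, minus strand): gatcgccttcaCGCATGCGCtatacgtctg
Uqcrc1 (chr9:108936668-108936697, plus strand): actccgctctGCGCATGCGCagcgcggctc
Cox6a1 (chr5:115349101-115349130, minus strand): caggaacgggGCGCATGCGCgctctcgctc
Atp5g2 (chr15:102671070-102671099, minus strand): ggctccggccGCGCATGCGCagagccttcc
Atp5k (chr5:108434430-108434459, minus strand): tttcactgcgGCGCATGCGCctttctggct
Atp5l (chr9:44920963-44920992, minus strand): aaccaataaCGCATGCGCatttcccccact
In 7 of the 10 the letters read the same on both strands over 10 bases, and in the other 3 they matched on the strand opposite to the gene.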

How the data were processed

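RNA of 10 tumors (5 PIIO-1, 5 PBS, by the treatment label) was read from 1 deposited table, a signal of normalized counts that the authors scaled per library. HISAT2, featureCounts, DESeq2 and build GRCm38 are named in the submitters' processing notes; tool versions, gene models and strandedness were not given in the sources used here. Total RNA was purified on Qiagen columns and NEBNext libraries were made, per the labels' protocols. Dividing each deposited column by its smallest step gave whole reads for 100% of values within 0.001 read.

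Values were analysed as log2(value + 1) for genes with a mean of at least 10, with limma 3.58.1 (intensity trend, two-sided) and R 4.3.3; edgeR 4.0.16 and DESeq2 1.42.0 ran on the whole reads. The limma step was first tested on simulated data. Replicate numbers come from the titles. Tumors were not treated as pairs, as deviations of same-numbered tumors correlated between -0.21 and 0.095. These values gave no clear sign of pairing but cannot exclude it. Symbols were matched to GENCODE M21, 106 of 107 members to 1 gene, and copies were sought by shared windows of 100 bases and by blastn 2.17.0 (at least 90% identity over 60 bases). Proteins were not used here.

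Members, lists and tests were chosen with earlier results of these data known. Named were all mitochondrial members, in each nuclear complex the 3 members with the smallest p and the highest per kilobase, the tissue forms with their partners, and in each other list the 2 genes with the smallest p (1 such gene is not reported here); any other gene was picked once its values were known. The lists outside the members covered assembly, electron carriers, mitochondrial RNA, regulators, the tricarboxylic acid cycle and hypoxia. Marker lists for T cells, fibroblasts and brown fat summed to 1565 to 4359, 1983 to 9883 and 25.9 to 53.5 over the tumors. Each test was repeated with pseudocounts of 0.5 and 5, without the filter or with a mean of 50, under 3 other scalings, with array weights, without the trend, with a replicate block, by edgeR and DESeq2, and leaving out each tumor in turn.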

Additional observations from a re-analysis of the deposited data

Results flagged for a closer look

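In groups of 5 tumors, a value is set out here where its gap to the nearest other tumor exceeds 0.71 of the group's range. For normally distributed values chance gives this in about 1 in 20 groups. Gaps of single genes were taken on normalized counts, and that of the mean level on its log2 scale. A log2 scale narrows the gap of a high value, and the rule was not run on it for single genes. On normalized counts the rule was met by 9 of 13 mitochondrial members among PIIO-1 tumors and by 0 of 13 among PBS tumors, and by 6 and 3 of 94 nuclear members. Since the 9 genes were read from 1 library they are a single event. In PIIO-1 tumor 5, the highest of its group each time, mt-Co1 was at 508767 normalized counts (the other PIIO-1 tumors 193156 to 274318), mt-Cytb at 166443, mt-Nd1 at 111303, mt-Nd2 at 61490.5 and mt-Nd4 at 50246. In the same tumor mt-Nd5 was at 47959, mt-Nd6 at 12849, mt-Atp6 at 1747 and mt-Nd4l at 123. The mean log2 level of the mitochondrial members was 12.59 there (11.19 to 11.56 in the others), and all mitochondrial genes, RNA genes included, took 3.12% of its reads (1.29% to 1.71% in the others).

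Among the nuclear members named, Cox4i1 was at 7882 in PBS tumor 4, below 8993 to 9381 in the other PBS tumors; that library is the shallowest, with 18843192 reads. Ndufa12 was at 1377 in PIIO-1 tumor 4, above 552 to 635 in the other PIIO-1 tumors.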

How the results depend on the processing

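limma called 0 genes and 0 members under every alternative run, while DESeq2 called 3 genes, none of them a member. With the replicate number as a block, limma called 0 genes, with 885 against 944 at an unadjusted p under 0.05. In 1 of 5 pairs the deviations of the PBS tumor matched those of its same-numbered PIIO-1 tumor best. The numbers thus gave no clear sign of pairing, which does not exclude it. For single genes the lowest adjusted p over all alternatives was 0.377 (0.498 for members). Fits with another variance model, with a block or on reads give no separate value for the levels per tumor.

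The median difference of nuclear members ran from -0.028 to 0.036 with 1 tumor left out, that of mitochondrial members from 0.027 (without PIIO-1 tumor 5) to 0.46 (without PBS tumor 1). The nuclear minus mitochondrial level (PIIO-1 minus PBS) was -0.25 and ran from -0.38 to 0.0082 (without PIIO-1 tumor 5); the share of mitochondrial reads differed by 0.315 points, -0.0211 to 0.504. Dropping PIIO-1 tumor 5 together with PBS tumor 4, a choice made after seeing the data, gave 0.085 and -0.111.

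Signs turned in these cases. Without both tumors, differences were -0.051 for mt-Co1, -0.20 for mt-Nd4l, -0.013 for mt-Nd1 and mt-Nd2, -0.18 for mt-Atp8, -0.13 for mt-Co3, -0.11 for mt-Nd4, -0.15 for mt-Nd5, -0.16 for mt-Nd6, -0.31 for mt-Co2, -0.019 for Uqcr10, -0.0029 for Cox8a, -0.060 for Cox6a2, -0.050 for Cox6a1, 0.0014 for Cox7a2l and -0.13 for Cox4i2. Scaling to the nuclear-encoded total gave -0.0031 for Sdha, -0.020 for Uqcr10 and -0.017 for Cox6a1, and upper-quartile scaling -0.0021 for Uqcr10. Array weights gave 0.0015 for Cox7a2l and -0.010 for Cox4i2, and edgeR -0.0054 for Cox4i2. With 1 tumor left out the ranges were -0.027 to 0.0069 for Atp5b, -0.16 to 0.19 for Cox4i2, -0.030 to 0.058 for Cox6a1, -0.069 to 0.45 for Cox6a2, -0.082 to 0.015 for Cox7a2, -0.027 to 0.018 for Cox7a2l, -0.0059 to 0.086 for Cox8a, -0.085 to 0.023 for Ndufaf8, -0.029 to 0.050 for Uqcr10, -0.10 to 0.30 for mt-Co2, -0.040 to 0.37 for mt-Co3, -0.031 to 0.43 for mt-Nd4, -0.15 to 0.38 for mt-Nd4l, -0.079 to 0.31 for mt-Nd5 and -0.071 to 0.32 for mt-Nd6. The causes were not tested. The fits that left out tumors hold fewer of them, while those with another scaling, array weights or edgeR hold every tumor. Scaling to the nuclear-encoded total moved the median of all genes most, by -0.028.

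With 5 tumors a group, the 95% interval of each mitochondrial gene covered 0. For mt-Co1 it was -0.33 to 0.95, which holds a difference of the size seen (0.31) on both sides of 0. For mt-Nd3 (-0.17 to 1.08), mt-Atp6 (-0.42 to 1.36) and mt-Cytb (-0.29 to 0.93) a difference of the size seen lay inside above 0 only. For the steadier Uqcrc1 the interval was -0.099 to 0.054. Low members such as Cox6b2 (95% interval -0.12 to 1.59) are limited by their counts, where 3 reads are worth 2.45 to 4.68 normalized counts.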
